A study of Canis lupus familiaris with 5 samples.

Results

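Gene-desert sites outside repeats were the peaks that lay far from every annotated gene start and whose summit was not in a repeat. A peak belonged when the deposited annotation called it distal intergenic, its distance to the nearest transcription start site (TSS) was at least 250 kb, and its summit fell outside the repeat recorded for it, or no repeat was recorded. There were 1316 such sites among 92417 peaks in 3 lists. DUX4 had 1272 of them and DUXC 44, and DUXC-ALT had 0. No peak height was used to choose them.

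The lists come from chromatin immunoprecipitation and sequencing (ChIP-seq) in immortalized canine myoblasts, dividing muscle precursor cells, and 1 library stands behind each list. A monoclonal line expressed human DUX4, another monoclonal line canine DUXC, and a polyclonal line the canine isoform DUXC-ALT, each from a doxycycline-inducible vector (1 µg/ml for 24 hours). In both canine proteins the C-terminal end had been exchanged for that of human DUX4, against which the rabbit antiserum for all factors was raised. Luciferase lines, 1 polyclonal and 1 monoclonal and not inducible, were the negative controls and have no peak list here. Only the DUXC-ALT line is polyclonal, so for that list clonality cannot be told apart from the factor. DUX4 and DUXC each come from 1 monoclonal line, so the clone cannot be told apart from the factor either. No difference below has a replicate check, so none has a p-value, and intervals are exact 95% intervals that cover counting error only.

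DUX4 and DUXC are transcription factors with a pair of homeodomains, each of which contacts DNA. DUX4 switches on genes of the cleavage-stage embryo, and its expression in muscle causes facioscapulohumeral dystrophy. Gene deserts are long stretches without annotated genes, and some flank developmental genes and hold distant enhancers.

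Deserts took a larger share of the full DUX4 list than of the DUXC list. At the same list length the difference was smaller and the intervals overlapped. Gene-desert sites outside repeats made up 1.48% of the 85825 DUX4 peaks (1.40 to 1.57%). They made up 0.730% of the 6031 DUXC peaks (0.531 to 0.978%). Among the 561 DUXC-ALT peaks there were 0, which allows a share of up to 0.535%. The DUX4 and DUXC intervals did not overlap, and the exact DUXC-ALT interval overlapped that of DUXC.

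The steps of the rule show where the lists parted. Distal intergenic peaks were 56.7% of DUX4 peaks (56.4 to 57.1%), 52.8% in DUXC (51.5 to 54.1%) and 55.3% in DUXC-ALT (51.0 to 59.4%). Of these, a distance of at least 250 kb from a TSS was found for 5.11% in DUX4 (4.92 to 5.31%), 2.89% in DUXC (2.34 to 3.53%) and 1.94% in DUXC-ALT (0.714 to 4.16%). The intergenic step and the distance step thus both separated DUX4 from DUXC, the distance step by more in proportion. The repeat step did not: 1272 of 2490 far DUX4 peaks (51.1%) and 44 of 92 far DUXC peaks (47.8%, 37.3 to 58.5%) had their summit outside a repeat. Among distal intergenic peaks closer than 250 kb the same shares were 48.7% and 47.2%.

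All 6 far DUXC-ALT peaks had their summit in a repeat of the MER21 family, long terminal repeats of endogenous retroviruses, 5 of them in MER21C and 1 in MER21B. MER21C or MER21B held 12 of the 2490 far DUX4 peaks (0.482%) and 3 of the 92 far DUXC peaks (3.26%). Of DUXC-ALT distal intergenic peaks under 250 kb, 27.3% lay outside repeats, so 6 far peaks are too few to tell 0 from that share. The DUXC-ALT peak outside repeats that came nearest to the rule lay 188 kb from the TSS of MARCH1, which encodes a ubiquitin ligase.

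Density per megabase (Mb) takes the amount of desert sequence into account. Sequence at least 250 kb from every TSS named in the lists, and outside the gene bodies named there, added up to 60.2 Mb, 2.59% of 2326 Mb. DUX4 peaks outside repeats stood at 21.2 per Mb there and 19.4 per Mb elsewhere, a ratio of 1.09 (1.03 to 1.16). DUXC peaks outside repeats stood at 0.731 and 1.37 per Mb, a ratio of 0.535 (0.388 to 0.720). Repeats were not removed from the sequence lengths, so these densities also depend on how much of the sequence is repeat. Counting all peaks, in and outside repeats, the ratios were 1.13 (1.08 to 1.17) for DUX4 and 0.584 (0.470 to 0.717) for DUXC. The DUX4 list was thus slightly denser in deserts than elsewhere and the DUXC list sparser. DUXC-ALT had 0 of 195 peaks there, against 0.0861 per Mb elsewhere. A count of 0 allows a ratio of up to 0.588 at 3 counts and up to 0.719 by the exact interval.

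The 2 lists differ in length as well as in factor. When the DUX4 list was held to its 6031 strongest peaks, as many as DUXC had, 70 gene-desert sites were left, 1.16% of those peaks (0.906 to 1.46%). Their density ratio was 0.834 (0.648 to 1.06). The slight surplus of DUX4 in deserts was thus not seen among its strongest peaks. At equal list length the DUXC values stayed lower, a share of 0.730% and a ratio of 0.535, and both intervals overlap those of the shortened list. Overlap alone does not show that the factors are alike, and no interval of the difference was computed. The shortening was chosen after seeing the data.

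**Figure D1:**
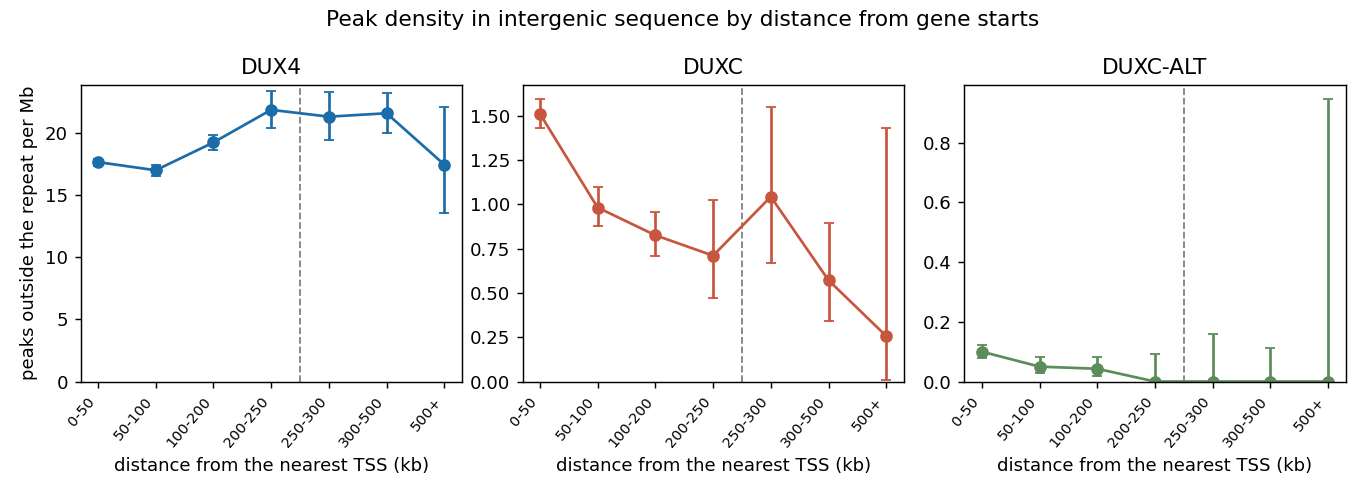
Peaks with the summit outside a repeat per Mb of intergenic sequence (vertical axis, one scale per panel), by distance of that sequence from the nearest TSS named in the lists, in kb (horizontal axis). Bars are exact 95% Poisson intervals and the dashed line marks 250 kb. DUX4 goes from 17.6 per Mb nearest to genes to 21.8 per Mb at 200 to 250 kb and 21.6 at 300 to 500 kb. DUXC goes from 1.51 nearest to genes to 0.571 at 300 to 500 kb.

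In intergenic sequence alone, DUX4 density outside repeats was 17.6 per Mb within 50 kb of a TSS and 17.0 at 50 to 100 kb. It was 19.2 per Mb at 100 to 200 kb and 21.8 at 200 to 250 kb (20.4 to 23.3), just outside the threshold. Past it, density was 21.3 per Mb at 250 to 300 kb and 21.6 at 300 to 500 kb. The rise of DUX4 density was thus reached before 250 kb and was not particular to deserts. Beyond 500 kb it was 17.4 per Mb (13.5 to 22.1), from 68 sites. DUXC density was 1.51 per Mb within 50 kb, 0.825 at 100 to 200 kb, 1.04 at 250 to 300 kb (0.668 to 1.55), 0.571 at 300 to 500 kb (0.344 to 0.892) and 0.256 beyond 500 kb (0.00649 to 1.43), from 1 site. DUXC density was lower already at 50 to 100 kb, at 0.982 (0.876 to 1.10) against 1.51 (1.43 to 1.59) within 50 kb. The 250 to 300 kb value stood above both its neighbours, with intervals that overlap them.

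Distances within deserts were spread mainly just past the threshold. The median distance from a TSS was 318 kb for DUX4 (interval of the median 313 to 325, quartiles 281 and 382) and 294 kb for DUXC (284 to 317, quartiles 274 and 330). Of the sites, 68 DUX4 and 1 DUXC lay at 500 kb or more. The nearest gene body was also at least 250 kb away for 82.4% of DUX4 and 81.8% of DUXC sites. The other sites were closer to some other part of a gene than to its start, and 13 DUX4 sites lay within 50 kb of a gene body.

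The farthest sites lay in gene-free intervals that end at POU3F4, a POU-domain transcription factor of the nervous system and inner ear, and at PCDH9, a protocadherin, an adhesion protein of neurons. On the X chromosome a gene-free interval of 1.62 Mb (canFam3 chrX:62803696-64427324), the longest that held sites, lies between POU3F4 and a gene named SET by its human homolog only. It held 6 DUX4 sites and 1 DUXC site. The farthest DUX4 site, 767 kb from a TSS, had fold enrichment 10.1, and the next, 758 kb from POU3F4, had 5.30. The DUXC site there lay 700 kb upstream of POU3F4 (chrX:63727212-63727592) and had the second highest fold enrichment of the DUXC sites, 13.4, with a pileup of 33. Fold enrichment, here and throughout, is the authors' value for the peak, the height over local background, and pileup is the height at the summit, scaled differently in each list. A DUX4 peak with its summit 20 bp away overlapped that DUXC site, but its summit lay in a recorded repeat, L1_Canid2, so it was not counted among the DUX4 sites.

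The next interval by length, 1.39 Mb on chromosome 22 (chr22:20814847-22207809), borders PCDH9 and an unnamed gene and held more DUX4 sites than any other, 35 of its 75 DUX4 peaks. Their fold enrichment ran from 3.70 to 15.8 with a median of 8.22, and 9 of the 35 reached 10. None of the 35 overlapped a DUXC peak, a count near what the shares of all DUX4 sites (1.89%) and all DUX4 peaks (3.92 percent) give for 35. The single DUXC site in the interval (chr22:21089001-21089284) had fold enrichment 4.28 and no DUX4 peak over it. The third, 1.28 Mb on chromosome 32 between 2 unnamed genes, held 9 DUX4 sites and no DUXC site.

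DUX4 sites followed desert sequence along the genome. They were found on 37 of 39 chromosomes, all except 25 and 35, which have 0.230 and 0.0546 Mb of desert sequence. Across the 39 chromosomes, desert sequence and number of DUX4 sites had a Pearson r of 0.884 and a Spearman rho of 0.884, and r was 0.858 without chromosome 22. The points come from 1 library and share its depth, and long deserts give more room for sites by construction.

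Chromosome 22 alone carried 148 of the 1272 DUX4 sites (11.6%) on 8.82% of all desert sequence. They were 4.97% of the DUX4 peaks on that chromosome (4.21 to 5.81%), against 1.48% in the whole list. Per Mb of desert, chromosome 22 had 27.9 sites, and the 25 chromosomes with at least 1 Mb of desert had a median of 22.5. The lowest of the 25 was chromosome 32 with 8.56 and the next was X with 9.89, from 34 sites on 3.44 Mb. The highest was chromosome 33 with 35.8. Chromosome 22 therefore stood out in its amount of desert more than in its density of sites.

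DUXC sites were spread over 22 chromosomes. Chromosome 10 had the most, 6 of 44 (13.6%), in 2.04 Mb of desert. Chromosome 22, with more desert than any other, had 2 of the 44. At counts this low the chromosomes cannot be ranked.

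**Figure D2:**
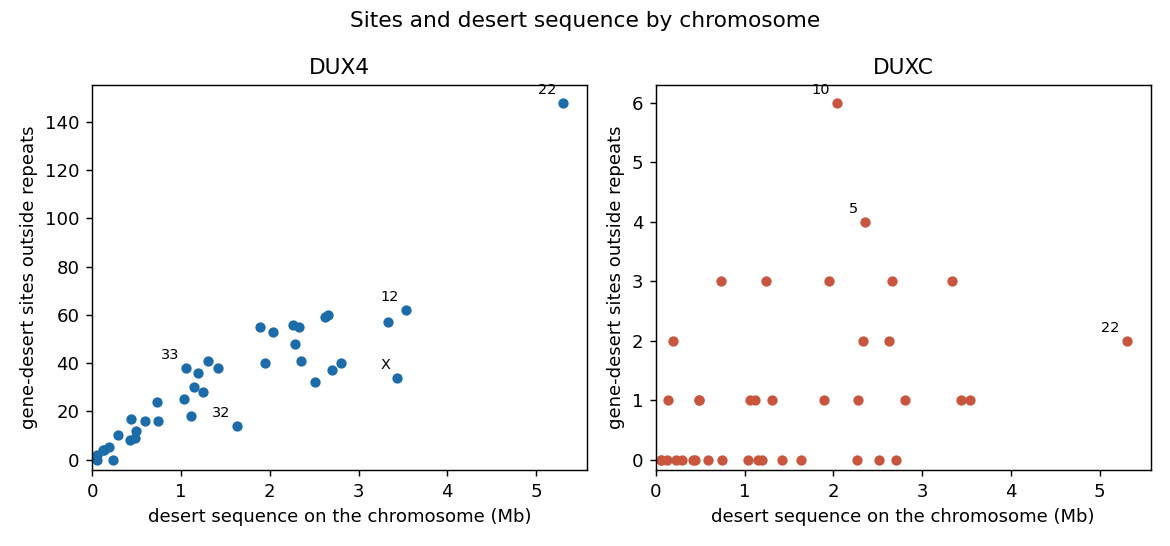
Gene-desert sites outside repeats (vertical axis, number) against desert sequence in Mb (horizontal axis) for 39 chromosomes, 1 point each, with some chromosomes named. DUX4 sites rise with desert sequence to 148 on chromosome 22, with chromosome 32 and X low for their desert, while DUXC has 6 sites on chromosome 10 and 2 on chromosome 22.

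Desert sequence fell into 298 stretches. Of the 189 stretches of at least 100 kb, 179 held a DUX4 site and 30 a DUXC site, so long stretches without a DUX4 site were few. By gene-free interval, 226 intervals held a DUX4 site and 34 a DUXC site, and 32 of these held both. The 226 counts the interval at the start of chromosome 36 once for each of its DUX4 sites. The last count stands beside 225 of all 298 stretches with a DUX4 site, so most intervals with a DUXC site would hold both in any case. The 35 intervals with 10 or more DUX4 sites held 476 sites (37.4%).

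The nearest genes of DUX4 sites were mostly unnamed in the deposited annotation. The 1272 sites had 378 nearest genes, 108 of them with a name. A named nearest gene was found for 29.9% of sites, against 46.9% of the other DUX4 peaks and 36.6% of the other distal intergenic ones outside repeats. For DUXC it was 22 of 44 sites, against 53.2% of the other peaks and 43.1% of the other distal intergenic ones outside repeats. The DUXC sites had 36 nearest genes, 17 with a name. Of the 36, 32 were also the nearest gene of a DUX4 site. That count stands beside 561 genes that border desert sequence and the 378 nearest genes of DUX4 sites, so much of it is given by how common DUX4 sites were.

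Among named genes, PCDH9 had the most DUX4 sites, 20. Its relative PCDH17 had 9, and GBE1, the glycogen branching enzyme, had 10. EPHA7, an ephrin receptor of axon guidance, and RBFOX1, a splicing regulator of neurons and muscle, had 8 each. Of the separate genes called 5S_rRNA, ribosomal RNA copies, one on chromosome 22 had 11 and one on chromosome 14 had 8, and the others of that name had 6 or fewer each. Genes named by human homolog only followed, AK3 with 10, and SPATA31D4 and a gene called FTL on chromosome 22 with 8 each. A separate gene called FTL, on chromosome 3, had 4. The interval next to RBFOX1 (chr6:34555877-35824197) held 21 DUX4 sites and no DUXC site.

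DUXC sites had at most 3 per nearest gene. The gene called SNORA31 by its human homolog, a small nucleolar RNA, had 3, and FAM19A5, a secreted protein of the nervous system, SPTLC3, a subunit of serine palmitoyltransferase, and SPATA19, a testis protein, had 2 each.

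Gene lists were counted by genes with a site as nearest gene, beside 10577 named genes, 1 gene per name, with homolog names that several genes bear left out. Of these, 0.813 percent had a DUX4 site and 0.132 percent a DUXC site. Of 24 cadherins and protocadherins in the lists, 12 bordered desert sequence and 7 had a DUX4 site, namely CDH8, CDH11, CDH12, PCDH9, PCDH10, PCDH15 and PCDH17, with 40 sites together. Of 47 neuronal adhesion and guidance genes, 8 bordered desert sequence and 7 had a DUX4 site (LRRTM4, SLITRK1, CNTN6, CNTNAP5, LSAMP, EPHA5 and EPHA7). Over the 10577 genes, 133 bordered desert sequence and 86 had a DUX4 site. A listed gene that borders no desert could not have a site, so the counts are to be read against the bordering genes.

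Of 57 developmental transcription factors, 5 bordered desert sequence and 4 had a DUX4 site: IRX2, POU3F4, ETV1 and DACH1, the last named by its human homolog only. Of 50 channels and neurotransmitter receptors, 5 bordered desert sequence and 4 had one: the glutamate receptors GRIA1, GRIK2, GRM3 and GRM7. HGF, the hepatocyte growth factor, was the 1 of 36 signalling ligands with a DUX4 site, and 2 of the 36 bordered desert sequence; the site had a fold enrichment of 5.30. A gene called LDHA, after the human lactate dehydrogenase homolog only, was the 1 of 21 housekeeping genes, with 3 sites. None of 17 myogenic regulators and none of 11 DUX4 targets and cleavage-stage genes bordered desert sequence, so neither list could have a site by this rule.

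For DUXC sites, 4 genes of these lists were the nearest gene. Over the 10577 named genes, 133 bordered desert sequence and 14 had a DUXC site. Desert sequence was bordered by 12 cadherins and protocadherins, 8 adhesion and guidance genes and 5 developmental transcription factors. These 3 lists had 1, 1 and 2 genes with a DUXC site. Counts this low set no list apart. A site 278 kb from CDH11, a cadherin of mesenchymal cells, had fold enrichment 7.11, and no DUX4 peak overlapped it, although DUX4 had a site of its own 259 kb from CDH11. The site 252 kb from LSAMP, an adhesion protein of limbic neurons, had 8.48. The site 303 kb from POU3F2, another POU-domain factor of neurons, had 6.02 and no overlapping DUX4 peak. The fourth was the POU3F4 site described above.

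DUX4 sites in deserts had close neighbours of their own kind about as often as nearer intergenic peaks, and such neighbours within 50 kb more often. Of the 1272 DUX4 sites, 427 (33.6%, 31.0 to 36.2%) had another such site within 10 kb, against 32.6% of the other distal intergenic DUX4 peaks outside repeats. Within 50 kb it was 84.0% (81.8 to 85.9%) against 78.2% (77.7 to 78.8%). Nearer intergenic peaks have genes and other kinds of peaks between them, which these shares do not take into account. Counting any peak of the list as a neighbour, the share within 10 kb was 56.4% of the DUX4 sites, beside 55.1 percent over the whole list. Within 50 kb it was 98.7%, beside 96.9%. The median gap between neighbouring DUX4 sites was 33.3 kb (quartiles 13.0 and 82.0), against 41.1 kb among those other peaks. The 427 fell into 188 runs, 41 of which had 3 or more sites. The largest run, singled out after its values were seen, had 7 sites in 31.4 kb on chromosome 18 (chr18:31061416-31092807), with fold enrichment from 4.42 to 16.8.

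Of the 44 DUXC sites, 2 (4.55%, 0.555 to 15.5%) had another within 10 kb and 10 within 50 kb. For other distal intergenic DUXC peaks outside repeats the share within 10 kb was 2.74%, inside that interval. Any DUXC peak was a neighbour within 10 kb for 7 of the 44 sites (15.9%, 6.64 to 30.1%). The share over the whole list, 8.24 percent, lies inside that interval too. The 2 close ones were on chromosome 10 (chr10:4463679-4463983 and chr10:4473571-4473839).

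By windows of 1 Mb, DUX4 sites were densest on chromosome 22 from 21 to 22 Mb, in the PCDH9 interval, with 35 sites among 54 DUX4 peaks. Chromosome 22 from 53 to 54 Mb followed with 17. Next came, with 16 each, the windows on chromosome 29 (30 to 31 Mb), on chromosome 31 (6 to 7 Mb, next to GBE1) and on chromosome 4 (46 to 47 Mb).

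DUXC sites reached 3 in each of 3 windows. On chromosome 10 from 4 to 5 Mb, next to the gene called SNORA31 by its homolog, all 3 overlapped a DUX4 peak, beside 55.7 percent of all DUXC peaks. On chromosome 26 from 36 to 37 Mb, near CSTF2T, which encodes an RNA cleavage factor, and on chromosome 8 from 65 to 66 Mb, 1 of the 3 did.

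The chromosome 10 window held peaks of all 3 lists in 1 gene-free interval of 0.856 Mb (chr10:4179840-5035600), between the gene called SNORA31 and FAM19A2, a relative of FAM19A5. It held 46 DUX4 peaks, of which 9 were gene-desert sites outside repeats, and 3 DUXC peaks, all 3 of them such sites. The DUXC sites had fold enrichments of 4.94, 6.49 and 7.56, and the DUX4 peaks over them 21.7, 7.09 and 18.2 in the same order. Over the first 2 DUXC sites the DUX4 summit lay in a repeat, LTR72A_CF and L1_Canis1, and over the third it did not. The single DUXC-ALT peak, in a MER21C repeat (chr10:4654692-4654804), overlapped neither list.

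DUX4 sites in deserts were shared with DUXC less often than DUX4 peaks elsewhere. Sharing means at least 1 bp in common with some peak of the list compared. Of the 1272 DUX4 sites, 24 (1.89%, 1.21 to 2.79%) were shared with DUXC, beside 3.92 percent of all DUX4 peaks. Among the other distal intergenic DUX4 peaks outside repeats it was 4.28% (4.02 to 4.56%). Far DUX4 peaks with the summit inside a repeat were shared in 1.89% of cases too (23 of 1218), so the low share was not particular to sites outside repeats.

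The share went down with distance from genes, starting before 250 kb. It was 5.05% within 50 kb of a TSS, 3.73% at 50 to 100 kb, 3.02% at 100 to 200 kb and 2.25% at 200 to 250 kb. Past the threshold it was 2.46% at 250 to 300 kb (1.28 to 4.26%), 1.75% at 300 to 400 kb and 1.49% at 400 to 500 kb. Of the 68 DUX4 sites at 500 kb or more, 0 were shared, which allows a share of up to 4.41%. The values just outside and just inside the threshold had overlapping intervals, so no step at 250 kb itself was resolved. The density of DUXC peaks goes down over the same distances, as given above.

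Seen from the DUXC list, sharing showed no course with distance, at 57.5% within 50 kb, 64.1% at 100 to 200 kb, 58.3% at 250 to 300 kb and 52.9% at 300 to 400 kb. Of the 44 DUXC sites, 25 (56.8%, 41.0 to 71.7%) overlapped a DUX4 peak, beside 55.7 percent of all DUXC peaks, and 58.1% of the other distal intergenic DUXC peaks outside repeats. Neither list's sites overlapped a DUXC-ALT peak. For the 1272 DUX4 sites that allows a share of up to 0.236%, beside 0.119 percent of all DUX4 peaks. For the 44 DUXC sites it allows up to 6.82%, beside 2.42 percent of all DUXC peaks. Both limits lie above the whole-list share, so a difference was not detectable at these counts.

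**Figure D3:**
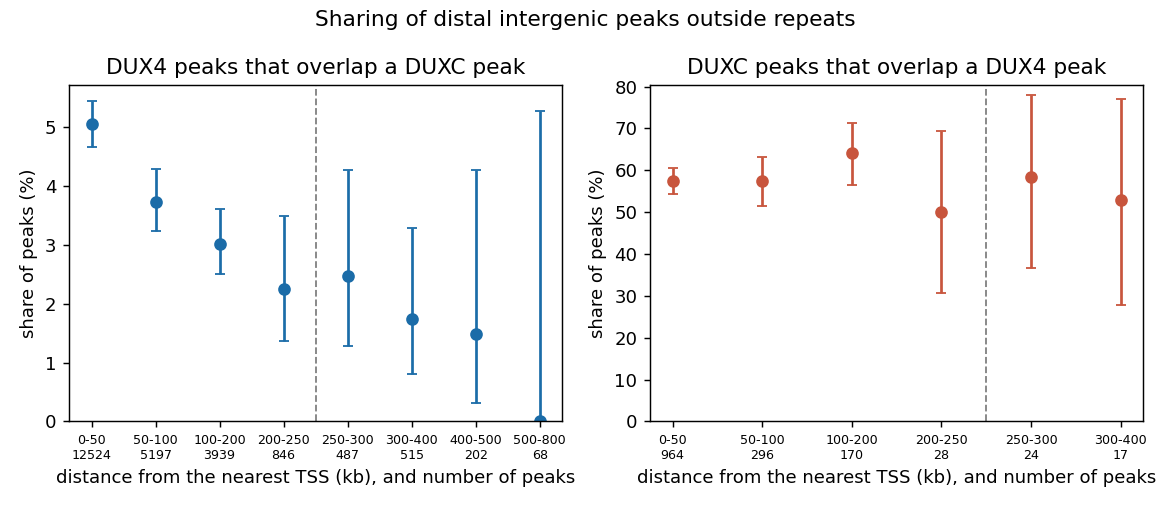
Share of distal intergenic peaks outside repeats that overlap a peak of the other list (vertical axis, percent), by distance to the nearest TSS in kb (horizontal axis, with the number of peaks under each bin; bins of fewer than 10 peaks are not drawn). Bars are exact 95% intervals and the dashed line marks 250 kb; the DUX4 share goes from 5.05% to 0 of 68, and the DUXC share runs from 14 of 28 peaks at 200 to 250 kb to 64.1% at 100 to 200 kb.

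Shared sites were stronger than the others, as shared peaks were in the rest of each list. The 24 shared DUX4 sites had a median fold enrichment of 12.3 (interval of the median 9.37 to 16.8), against 7.05 (6.90 to 7.06) for the other 1248. Their median pileup was 32.1 against 15.6, and their median width 410.5 bp against 303 bp. When the DUX4 sites were ordered by fold enrichment and cut into 4 groups of 318, 0, 0, 6 and 18 were shared, from the weakest group to the strongest. The 25 shared DUXC sites had a median of 7.75 (7.56 to 8.90) against 5.88 (5.22 to 7.11) for the other 19. In both lists the 2 medians lay outside each other's interval. The relation was not particular to deserts. Of the other DUX4 peaks, 9.71% were shared at a fold enrichment of 10 or more, beside 3.95% at any level. For the other DUXC peaks these shares were 71.2% and 55.7%.

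Among strong peaks alone the difference was less well resolved. At a fold enrichment of 10 or more, 15 of 241 DUX4 sites were shared (6.22%, 3.53 to 10.1%), against 9.71% of the other DUX4 peaks at that level (9.30 to 10.1%). Of the other distal intergenic peaks outside repeats at that level, 10.9% were shared (10.1 to 11.8%), an interval that begins where that of the sites ends. Under that level 9 of 1031 DUX4 sites were shared (0.873%). The share of the other DUX4 peaks under that level was not computed.

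**Figure D4:**
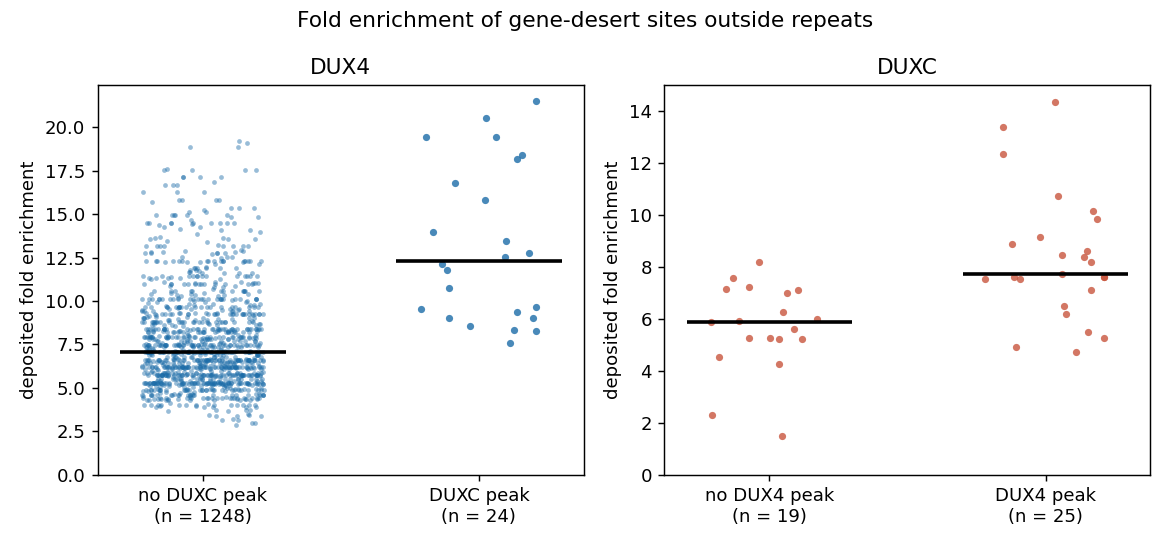
Deposited fold enrichment (vertical axis, one scale per list) of gene-desert sites outside repeats, 1 point per site, without and with an overlapping peak of the other list (horizontal axis); black lines are medians and sideways spread is random. The shared DUX4 sites have a median of 12.3 and the others 7.05, and the shared DUXC sites 7.75 and the others 5.88.

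At 20 places a DUX4 and a DUXC peak that overlap were both gene-desert sites outside repeats. At the other 5 of the 25 shared DUXC sites the DUX4 summit lay in a repeat, namely L1_Canid2, L1ME1, L1_Canis1, MLT1H and LTR72A_CF. Likewise 4 of the 24 shared DUX4 sites had a DUXC summit in a repeat. Summits of the 25 pairs lay a median of 28 bp apart (0 to 457), and 23 pairs lay within 100 bp.

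All 10 DUXC sites with the highest fold enrichment overlapped a DUX4 peak. The 5 of them at 10 or more (5 of 5, 47.8 to 100%) stand beside 71.2% of the other DUXC peaks at that level (67.9 to 74.4%), inside that interval. The highest were 292 kb from FAM19A5 (chr10:17861318-17861868; fold enrichment 14.4, DUX4 9.53 with the summit 7 bp away), the POU3F4 site, and chr26:36599708-36600105 (12.4, DUX4 18.4). A second site 277 kb from FAM19A5 had 10.7, with the DUX4 summit 0 bp away. One 317 kb from SGCD, the delta-sarcoglycan of the muscle cell membrane, had 9.85, and the DUX4 peak over it 15.8. One 401 kb from KLF6, a zinc-finger transcription factor, had 8.90, and the DUX4 peak over it 10.7. The others of the 10 were near LSAMP, near the gene called ICE1 by its homolog (10.1), and near unnamed genes on chromosomes 31 (9.17) and 34 (8.63).

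Of the 10 DUX4 sites with the highest fold enrichment, 6 overlapped a DUXC peak. The share over other DUX4 peaks of such strength was not computed, so the 6 cannot be read as high or low for deserts. The highest lay 489 kb from the TSS of an unnamed gene, in the interval that borders LRRTM4, a synapse-organizing protein (chr17:46584218-46584625; fold enrichment 21.5). Those at chr16:42422455-42422881 (20.5), chr31:1376392-1376804 (19.5), chr34:41514899-41515296 (19.5), chr26:36599799-36600163 (18.4) and chr10:4508225-4508672 (18.2) were shared too. The 4 without a DUXC peak lay 369 kb from ZNF516, a zinc-finger protein (19.2), on the X chromosome at chrX:78158750-78159152 (19.1), at chr17:32703390-32703716 (18.9) and 257 kb from the gene called ATP5B by its homolog (18.9). Strong DUX4 binding in a desert thus came with and without a DUXC peak.

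**Figure D5:**
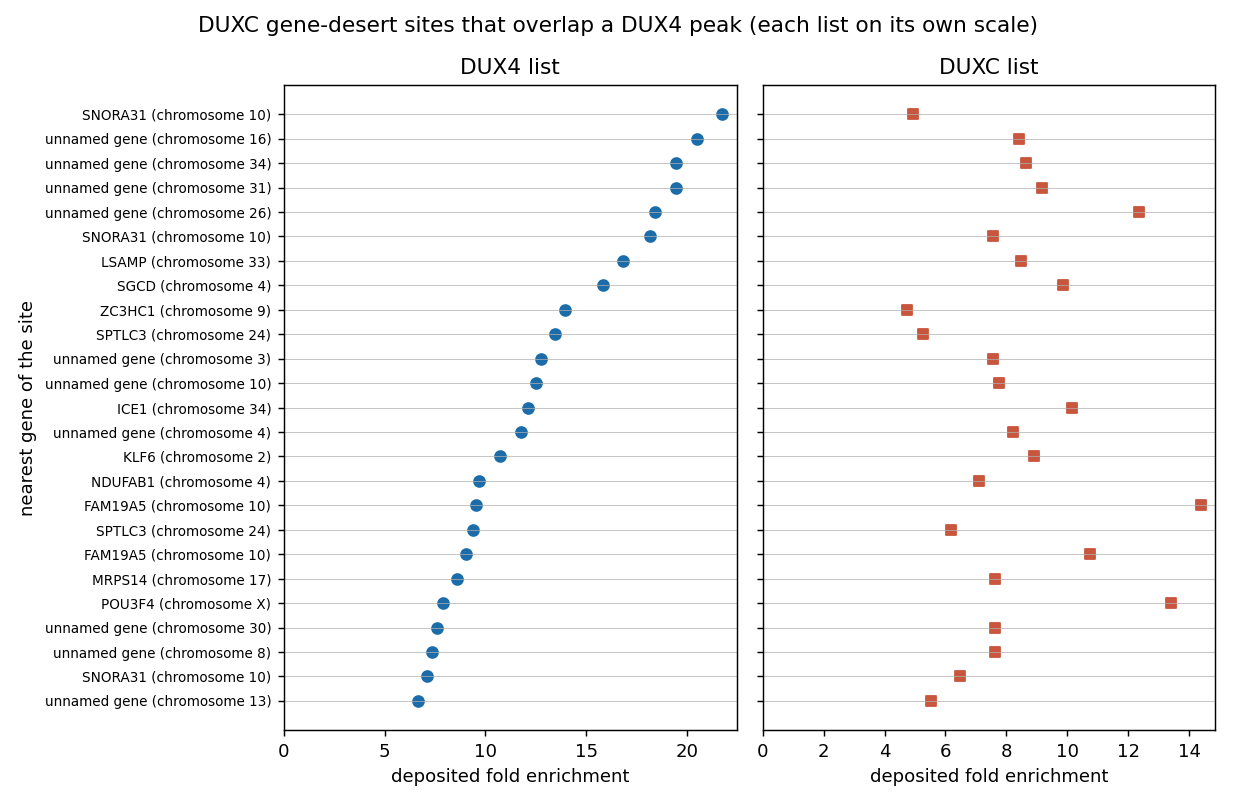
Deposited fold enrichment (horizontal axis, one panel and scale per list) at the 25 DUXC gene-desert sites outside repeats that overlap a DUX4 peak, ordered by the DUX4 value, with the nearest gene and chromosome (vertical axis; SNORA31, ICE1, MRPS14, NDUFAB1 and ZC3HC1 are names of human homologs). The DUX4 values run from 6.66 to 21.7 and the DUXC values from 4.73 to 14.4, in different orders.

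The order of the 25 places by fold enrichment differed between the lists (Spearman rho 0.0720 over 25 places, which share 1 library per list). The place highest in DUX4, 21.7 next to the gene called SNORA31, had 4.94 in DUXC, next to last. The place highest in DUXC, near FAM19A5, had 9.53 in DUX4.

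In height, gene-desert sites were close to other peaks of their list. The median DUX4 fold enrichment was 7.05 (7.05 to 7.15), against 7.37 for the other DUX4 peaks and 7.23 for the other distal intergenic ones outside repeats, and the median pileup was 16.5 against 17.4 for both. Of the DUX4 sites, 241 (18.9%, 16.8 to 21.2%) reached a fold enrichment of 10, beside 23.2 percent of all DUX4 peaks. The median DUXC fold enrichment was 7.14 (6.02 to 7.63) against 7.02, and 5 of 44 sites (11.4%) reached 10, beside 12.7 percent. DUX4 sites were thus slightly lower than their list and DUXC sites could not be told from theirs. Just outside the threshold, at 200 to 250 kb, the median fold enrichment was 7.05 for DUX4 and 6.67 for DUXC, and just inside, at 250 to 300 kb, 7.36 and 6.37.

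A raised local background, over 3 times the floor of the list, was seen at 28 DUX4 sites (2.20%), beside 2.88 percent of the list. It was seen at 4 of 44 DUXC sites (9.09%), beside 8.34 percent. The 2 lowest DUXC sites belong here. They lie at the starts of chromosomes 1 (chr1:15932-16264) and 6 (chr6:46079-46448), with pileups of 101 and 112 over local backgrounds of 43.5 and 74.1, and fold enrichments of 2.29 and 1.505. Both lie between the chromosome's end and its first gene in the lists. Without the 4 sites, the median DUXC fold enrichment was 7.40.

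Being outside a repeat by the summit did not keep the whole peak clear of one. The recorded repeat was touched by 591 of 1272 DUX4 sites (46.5%) and 21 of 44 DUXC sites (47.7%), and the other 681 and 23 had none recorded. By class, 16.1% of DUX4 sites touched a SINE, 12.8% a LINE, 6.68% an LTR and 2.59% a DNA transposon. Among the other distal intergenic DUX4 peaks outside repeats these were 18.3%, 13.8%, 6.70% and 4.12%. Of the DUXC sites, 27.3% (15.0 to 42.8%) touched a SINE, against 26.5%. The DNA transposon share of DUX4 sites (1.79 to 3.62%) lay below that of the nearer peaks (3.86 to 4.39%), and the LTR shares were alike to within counting error.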

How the data were processed

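ChIP-seq peaks of 3 factors, 1 library each, were taken from the authors' deposited lists on canFam3. CASAVA, BWA 0.7.10 and MACS2 2.1.0 are named in the submitters' processing notes, with no role or order. The deposited pileup was read as signal at the summit. The deposited fold enrichment was read as the ratio of that height to local background with 1 added to each, so local background was (pileup + 1) / fold enrichment − 1, and its floor was percentile 1 of the list. Each peak's −log10 q-value and −log10 p-value were deposited too; the smallest −log10 q was 2.03 (DUX4), 2.03 (DUXC) and 2.08 (DUXC-ALT). The control library, threshold and filters are not given in the sources used here, and read depth is unknown, so heights were used within a list only.

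Annotation, distance, repeat and gene names are as deposited; some names come from a human homolog only. Desert sequence was measured from the TSSs of the 21684 genes and 23636 transcripts the lists name, with chromosome ends at the first and last coordinates present; the mitochondrial genome was left out. The lists leave out genes nearest to no peak. Intervals are exact Clopper-Pearson (shares), Poisson (densities) and binomial (medians); limits for a count of 0 use 3 counts. Python 3.11.15, numpy 2.4.6, pandas 2.3.3, scipy 1.17.1 and matplotlib 3.10.9 were used, and overlap and rule code was tested on simulated data. The sites, the 8 gene lists and the comparisons were chosen with earlier results of these data known. Genes and sites are named by a rule: the 10 strongest and 5 farthest sites per list, the named genes and 1 Mb windows with the most sites, the 3 longest intervals, and listed genes with a DUXC site; those added are marked, some taken by the rule are left out. Alternatives changed the distance, repeat rule, overlap, neighbour distance, territory and strength.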

Additional observations from a re-analysis of the deposited data

How the results depend on the processing

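No paired analysis was possible because each factor has 1 library and no result comes from a test. No library could be left out, for the same reason. Of 65 values under an alternative, 31 stayed close and 34 moved. The cause was not tested, beyond what each alternative leaves out by construction.

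At 500 kb or more, the DUX4 share was 0.0792% and the DUXC share 0.0166% (1 site), sharing was 0% for DUX4 and 100% for DUXC, and the density ratios were 0.897 and 0.190. The DUX4 medians there were 6.78 (fold enrichment) and 14.7 (pileup), the DUXC values 13.4 and 33, the chromosome 22 share 36.8% and the chromosome 10 share of DUXC sites 0%; a single DUXC site gives no neighbour. With no base of the peak in the recorded repeat, the shares were 0.793% and 0.381%, and sites with a neighbour within 10 kb 21.9% for DUX4 and 0% for DUXC. At a fold enrichment of 10 in both lists, the DUX4 share was 1.21%, sharing 0.830% and 40.0%, neighbours 8.71% and 0%, median fold enrichment 12.3 and 12.4, and median pileup 26.6 and 24. At q under 1e-05, the DUX4 median fold enrichment was 7.49 and DUXC neighbours 0%. Within 50 kb, 84.0% of DUX4 and 22.7% of DUXC sites had a neighbour, and within 1 kb 3.62% and 0%. With as many DUX4 as DUXC peaks, chosen after seeing the data, the DUX4 share was 1.16% and its density ratio 0.834. Counting both flanking genes gave 66 genes for DUXC. The fold cutoff also removes most DUXC peaks; with it on the DUX4 list alone, sharing was 6.22%. Read depth is unknown; the few DUXC and DUXC-ALT sites give wide intervals.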
